A study of Mus musculus with 24 samples.

Results

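The transcripts of 10 enzymes that make asparagine, serine, proline, cysteine and one-carbon units were followed through cerebellum, liver and testes of mice with and without Thumpd1. The 10 genes are Asns, Phgdh, Psat1, Psph, Shmt2, Mthfd2, Aldh1l2, Aldh18a1, Pycr1 and Cth, chosen by symbol from a table of 55450 genes. Each symbol matched 1 row of the table.

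Asparagine synthetase (Asns) makes asparagine from aspartate, with glutamine as the nitrogen donor. Phgdh, Psat1 and Psph act in that order to turn a glycolytic intermediate into serine. In mitochondria, Shmt2 passes a carbon from serine to folate, Mthfd2 oxidizes the folate-bound carbon, and Aldh1l2 releases it as carbon dioxide with gain of NADPH. Aldh18a1 and Pycr1 open and close the route from glutamate to proline, and Cth makes cysteine from cystathionine. Several of these genes are textbook targets of Atf4, the transcription factor made in larger amounts when eIF2α is phosphorylated, a state called the integrated stress response.

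RNA came from wild-type (WT) and Thumpd1 knockout (KO) mice on a C57/BL6 background, 6 to 12 weeks old, with littermates of the same age as controls. The labels name no other allele and no treatment in either group. Thumpd1 encodes the RNA-binding partner of the acetyltransferase Nat10, which places N4-acetylcytidine on serine and leucine tRNAs. The gene was disrupted in fertilized eggs by Cas9 cuts at exons 1 and 4, so the allele was not limited to chosen cell types. Each tissue had 4 WT libraries (replicates 1 to 4) and 4 KO libraries (replicates 5 to 8), described in the study as biological replicates. The labels do not say which founder line each library came from, which sex the cerebellum and liver libraries came from, nor whether the 3 tissues came from the same animals. Stranded total RNA libraries were sequenced after removal of ribosomal RNA, and totals ran from 16353797 to 37889615 counts. The values below are CPM, the expected count scaled by the library total.

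Thumpd1 was low in every KO library. It lay between 9.19 and 26.3 CPM in the 12 WT libraries, between 0 and 0.113 CPM in the KO cerebellum and liver libraries, and between 0.768 and 1.14 CPM in KO testes. The labels thus matched the targeted gene in all 24 libraries. Hepatocyte markers summed to between 55677 and 95324 CPM in liver, granule cell markers to between 3786 and 4250 CPM in cerebellum, and elongating spermatid markers to between 8494 and 12177 CPM in testes. Those 3 lists had no marker at or under 3 counts in all libraries of their own tissue.

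The regions upstream of the genes are shown first for 4 genes. Asns and Pycr1 hold the core of the C/EBP-ATF response element, the motif that Atf4 and its partners are known to bind. The windows shown for Mthfd2 and Psph do not hold it, and whether it bears on any change was not tested. Each sequence is the 250 bases before the annotated start, 5′ to 3′ on the minus strand that carries the gene, from RefSeq on GRCm38.p6. RefSeq starts need not be the ends of the GENCODE gene spans given with the values, and all 4 windows reach into those spans, that of Mthfd2 wholly. The core (TGATGNAA, or TTNCATCA on the other strand) is in capitals.

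Asns, chr6:7693210-7693459: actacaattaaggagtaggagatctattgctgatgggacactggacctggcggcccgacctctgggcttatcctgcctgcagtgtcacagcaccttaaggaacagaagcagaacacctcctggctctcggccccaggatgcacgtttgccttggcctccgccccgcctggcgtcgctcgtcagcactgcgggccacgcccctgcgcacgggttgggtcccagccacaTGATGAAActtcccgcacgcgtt
Pycr1, chr11:120643749-120643998: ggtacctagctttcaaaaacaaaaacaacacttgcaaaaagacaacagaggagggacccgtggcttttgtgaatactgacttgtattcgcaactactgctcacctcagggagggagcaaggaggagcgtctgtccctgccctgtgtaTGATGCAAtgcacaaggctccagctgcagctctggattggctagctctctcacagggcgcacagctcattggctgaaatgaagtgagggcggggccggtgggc
Mthfd2, chr6:83317605-83317854: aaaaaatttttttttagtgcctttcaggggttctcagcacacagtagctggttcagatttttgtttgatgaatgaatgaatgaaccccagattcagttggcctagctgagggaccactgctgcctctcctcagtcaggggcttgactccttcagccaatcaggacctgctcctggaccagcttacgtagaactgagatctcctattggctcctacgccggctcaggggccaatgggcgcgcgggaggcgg
Psph, chr5:129787254-129787503: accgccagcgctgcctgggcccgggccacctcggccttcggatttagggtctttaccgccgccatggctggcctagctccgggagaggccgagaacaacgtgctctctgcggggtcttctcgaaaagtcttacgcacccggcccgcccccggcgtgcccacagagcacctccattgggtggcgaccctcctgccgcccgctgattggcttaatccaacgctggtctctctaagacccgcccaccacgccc

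RefSeq entries were matched for 8 of the 10 genes by symbol, 9 entries in all, since Psat1 had 2. Aldh1l2 and Cth were not matched. The core occurred 23 to 16 bases before the start of Asns, as TGATGAAA, and 103 to 96 bases before the start of Pycr1, as TGATGCAA. It was not found in this window of Phgdh, Psat1, Psph, Shmt2, Mthfd2 or Aldh18a1. Of 32851 entries of the same length, 1134 (3.452%) held it. The CCAAT box (CCAAT or ATTGG), a common promoter element, occurred 3 times upstream of Mthfd2, 2 times each in Psph, Phgdh, Pycr1 and 1 entry of Psat1, and in 33.85% of all entries. The GC box (GGGCGG or CCGCCC) occurred 3 times in Psph and once each in Asns, Pycr1, Aldh18a1 and the other entry of Psat1, and in 32.742% of all entries. A match in these letters is a description and not a binding site. Shmt2 held none of the 3 motifs.

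**Figure D1:**
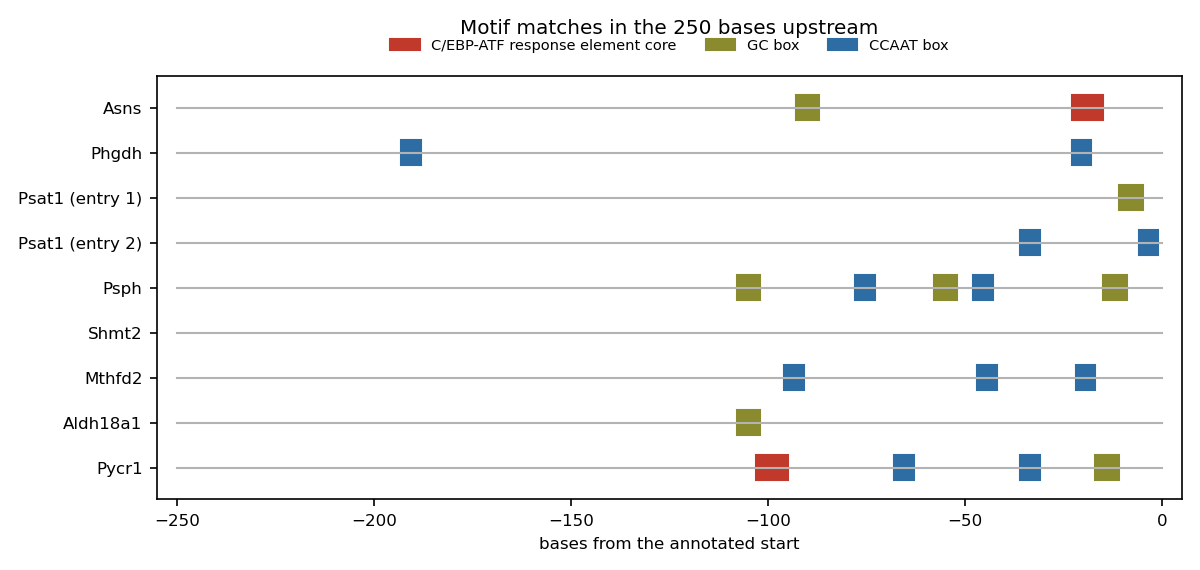
Matches of 3 motifs in the 250 bases before the annotated start of 8 genes (9 RefSeq entries), with distance from the start in bases on the x axis and 1 line per entry. The C/EBP-ATF core stands at 23 to 16 bases before the start in Asns and at 103 to 96 bases in Pycr1 and in no other entry drawn.

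The first question was where the 10 genes are expressed, since a gene near 0 cannot be followed. In WT animals the set divided by tissue. Levels between genes are compared here as CPM per kb of exon, as mean ± SD over 4 libraries. The length merges all annotated exons and is not that of the transcript expressed, so the order of genes depends on it. The SD covers the spread between libraries only. In liver, Cth at 89.3 ± 14.6 and Shmt2 at 76.2 ± 4.98 stood far above the rest and did not differ beyond their spread. Psph followed at 1.04 ± 0.0971. Asns (0.534 ± 0.312), Aldh18a1 (0.405 ± 0.0562) and Mthfd2 (0.402 ± 0.157) overlapped in spread. Liver Psat1 (0.0949 ± 0.0220), Phgdh (0.0596 ± 0.0551), Pycr1 (0.0508 ± 0.0305) and Aldh1l2 (0.0358 ± 0.0129) were near the floor and neighbours among them overlapped. Phgdh had between 0 and 9 counts per WT liver library, and 3 counts were taken as the limit that a count of 0 allows.

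Cerebellum showed another order. Asns (12.2 ± 0.383) and Phgdh (11.6 ± 0.445 CPM per kb) led and did not differ beyond their spread. Psat1 (8.61 ± 0.678), Shmt2 (7.78 ± 0.419), Aldh1l2 (5.35 ± 0.222) and Aldh18a1 (4.93 ± 0.347) followed, and within that run only the step from Shmt2 to Aldh1l2 was wider than the SDs. Psph stood at 2.07 ± 0.0810, Mthfd2 at 1.46 ± 0.155, Cth at 0.275 ± 0.0573 and Pycr1 at 0.109 ± 0.0298 CPM per kb. In CPM, without division by length, WT cerebellum Aldh1l2 (39.0 to 42.6) lay above Asns (32.1 to 34.7) and Phgdh (27.1 to 29.5). In testes Asns was by far the highest at 42.6 ± 1.01, above Phgdh (7.02 ± 0.799) and Mthfd2 (6.38 ± 0.472), whose spreads overlapped. Below them came Psat1 (4.44 ± 0.223), Shmt2 (3.63 ± 0.356), Psph (2.86 ± 0.294) and Aldh18a1 (1.87 ± 0.226). Cth (0.234 ± 0.113), Aldh1l2 (0.136 ± 0.0233) and Pycr1 (0.134 ± 0.0522 CPM per kb) were lowest and overlapped in spread.

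**Figure D2:**
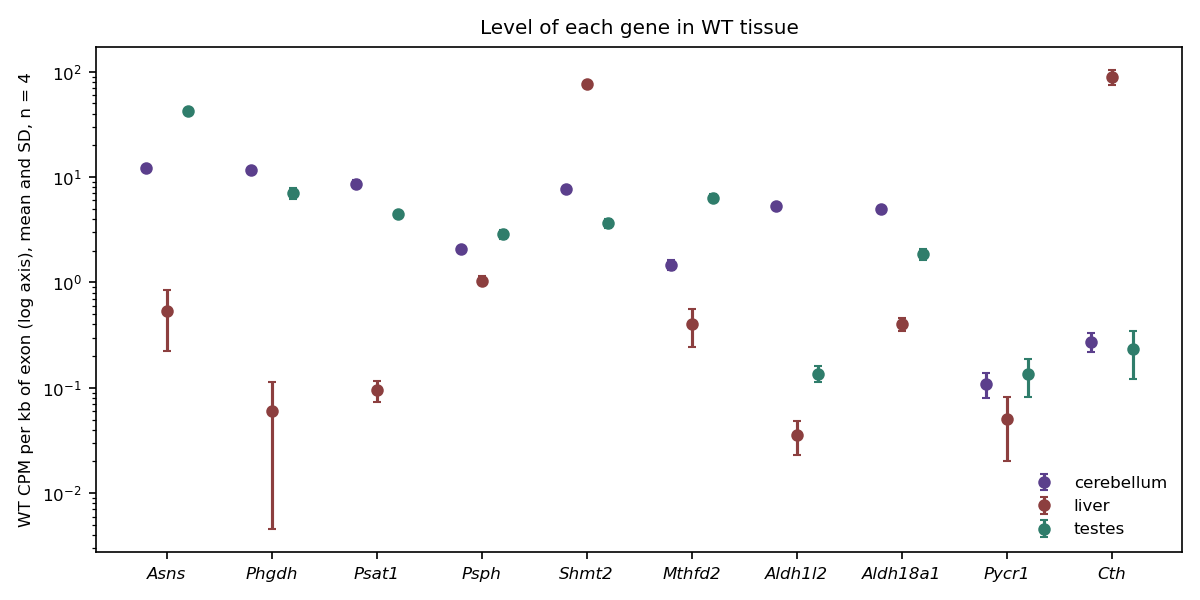
WT level of each gene in CPM per kb of exon on a log axis, by tissue, as mean and SD of 4 libraries. Cth and Shmt2 are highest in liver (89.3 and 76.2), Asns in testes (42.6), and Pycr1 is at or under 0.134 in all 3 tissues.

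The WT tissues were compared over all 24 libraries with TMM factors and limma-voom, in which 9 of the 10 genes could be tested and Pycr1 could not. Differences between tissues were the rule, with 85.3% of 22678 genes called between cerebellum and liver, 89.7% between testes and liver and 89.3% between testes and cerebellum. The counts for the 9 genes, 8, 9 and 8, were near that background and are no result about them. The scaling matters here, because the median log2 difference over all genes was -0.04, 0.87 and 0.40 in the same order with TMM factors, and -0.22, -0.26 and -0.28 with quantile normalization over the 24 libraries. Relative to the TMM medians, WT Asns was 3.51 higher in cerebellum than in liver and 1.66 higher in testes than in cerebellum on the log2 scale. Phgdh stood 7.01 and Aldh1l2 6.05 above liver in cerebellum, on the same scale, from few counts in liver. For cerebellum minus liver the log2 difference was -9.47 for Cth and -4.45 for Shmt2. Psph was 0.52 higher in testes than in liver before the median was taken off and -0.36 after it, and under quantile normalization its direction turned (-0.11), as did that of Aldh1l2 in the same contrast (from 0.98 to -3.45) and of Mthfd2 between cerebellum and liver (from 0.75 to -0.13). Under the same normalization Aldh18a1 lost its call between testes and liver, and Cth between testes and cerebellum and Psph between cerebellum and liver gained one. Phgdh passed narrowly between testes and cerebellum (adjusted p = 0.0478), and this call was lost in 17 of 29 alternatives.

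Some of these enzymes share a step with another gene, and the balance shifted by tissue. Shmt2 held 93.2% ± 0.969 of the CPM per kb of Shmt2 and its cytosolic counterpart Shmt1 in WT cerebellum, 65.8% ± 0.437 in liver and 30.7% ± 2.75 in testes. Aldh1l2 held 38.6% ± 1.38 of its sum with cytosolic Aldh1l1 in cerebellum but 0.0133% ± 0.00457 in liver and 2.17% ± 0.410 in testes. The shares of Mthfd2 in its sum with Mthfd2l were 64.0% ± 4.00, 67.0% ± 2.01 and 91.6% ± 1.73. All of these are means ± SD over 4 WT libraries, and they were not tested.

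The second question was how loss of Thumpd1 changed the set. In cerebellum 6 of the 8 genes that could be tested rose in KO, namely Mthfd2, Asns, Psph, Shmt2, Phgdh and Aldh1l2, and none fell. Aldh18a1 and Psat1 did not pass (log2 change 0.17 ± 0.0626 SE, adjusted p = 0.12, and 0.15 ± 0.0562, adjusted p = 0.137). Across all genes tested in cerebellum, 3.93% of 16225 were called higher and 2.51% lower. The median log2 change of the 8 genes was 0.26, against -0.0059 over all genes. CPM did not overlap between KO and WT for 7 of the 8 genes, all with KO above WT, where 13.8% of all genes did not overlap in either direction. In a whole tissue, more cells of a type and more RNA per cell cannot be told apart.

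Mthfd2, on chromosome 6 (mm10, 83305691 to 83325908, minus strand, 10 exon blocks), changed most in cerebellum. WT libraries 1 to 4 held 5.20, 5.78, 4.96 and 4.49 CPM, and KO libraries 5 to 8 held 8.76, 9.36, 8.12 and 8.26 CPM. The lowest KO library was above the highest WT library by more than either group's range. The log2 change was 0.72 ± 0.0955 (SE), a 1.64-fold rise, with adjusted p = 0.00135 in limma. Its share of the sum with Mthfd2l, which did not pass the test, went from 64.0% ± 4.00 to 74.2% ± 2.64.

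Asns, on chromosome 6 (7675169 to 7693254, minus strand, 13 exon blocks), held 34.7, 33.5, 33.1 and 32.1 CPM in the WT cerebellum libraries and 44.4, 49.0, 47.4 and 50.5 CPM in the KO libraries. The groups were well apart. The log2 change was 0.50 ± 0.0503, a 1.42-fold rise, and its adjusted p of 0.000306 was the lowest of the set.

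Each gene of the serine route had a log2 change above 0, but Psat1, the middle step, did not pass. The route was not tested as a group. Phgdh (chromosome 3, 98313170 to 98339990, minus strand), which opens the route, held 29.5, 29.4, 29.1 and 27.1 CPM in WT and 35.1, 33.02, 38.3 and 32.9 CPM in KO (log2 change 0.26 ± 0.0603, adjusted p = 0.0245). Psat1 (chromosome 19, 15904678 to 15947337, minus strand), the aminotransferase, held 38.9, 39.4, 33.8 and 34.5 CPM in WT and 39.8, 40.4, 42.3 and 41.6 CPM in KO, so that its lowest KO library lay just above its highest WT library. Psph (chromosome 5, 129765558 to 129787449, minus strand), the phosphatase that ends the route, held 9.01, 9.42, 8.93 and 8.57 CPM in WT and 10.97, 11.1, 12.5 and 12.4 CPM in KO (log2 change 0.36 ± 0.0804, adjusted p = 0.0215). Phgdh is the only 1 of the 10 with counts that are not whole, and its pseudogene row Phgdh-ps1 had a log2 change of 0.03 (adjusted p = 0.904).

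The mitochondrial folate genes Shmt2 and Aldh1l2 rose by less than Mthfd2. Shmt2 (chromosome 10, 127517123 to 127522444, minus strand) held 25.9, 23.7, 24.4 and 22.8 CPM in WT and 32.1, 26.7, 29.9 and 28.8 CPM in KO (log2 change 0.26 ± 0.0648, adjusted p = 0.0331). Aldh1l2 (chromosome 10, 83487450 to 83534140, minus strand) held 39.2, 39.6, 39.0 and 42.6 CPM in WT and 47.2, 48.9, 48.7 and 46.3 CPM in KO (log2 change 0.24 ± 0.0464, adjusted p = 0.0103). In neither gene did the groups overlap, although in Shmt2 the lowest KO library was within 1 CPM of the highest WT library. Exons of Psph, Aldh1l2 and Shmt2 overlap those of Cct6a (452 bp), D10Wsu102e (1056 bp) and Ndufa4l2 (32 bp) on the other strand. The strand used in counting is not given in the sources used here, so these 3 counts are uncertain. The neighbours' log2 changes in cerebellum were -0.00 (Cct6a), -0.01 (D10Wsu102e) and 0.18 (Ndufa4l2), and none passed.

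Of the proline genes, Aldh18a1 (chromosome 19, 40550257 to 40588463, minus strand) held 20.2, 19.0, 22.1 and 19.1 CPM in WT and 23.1, 22.7, 23.6 and 21.8 CPM in KO. The ranges overlapped, since KO replicate 8 fell below WT replicate 3. Pycr1 (chromosome 11, 120635712 to 120643769, minus strand) had 7 to 11 counts per WT library and 8 to 14 per KO library and was under the filter, as was Cth (chromosome 3, 157894248 to 157925077, minus strand) with 10 to 21 and 13 to 19 counts. Without the filter the log2 change was 0.40 ± 0.335 (SE) for Pycr1 (adjusted p = 0.650) and 0.07 ± 0.253 for Cth (adjusted p = 0.917), errors larger than those of the 8 genes tested.

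**Figure D3:**
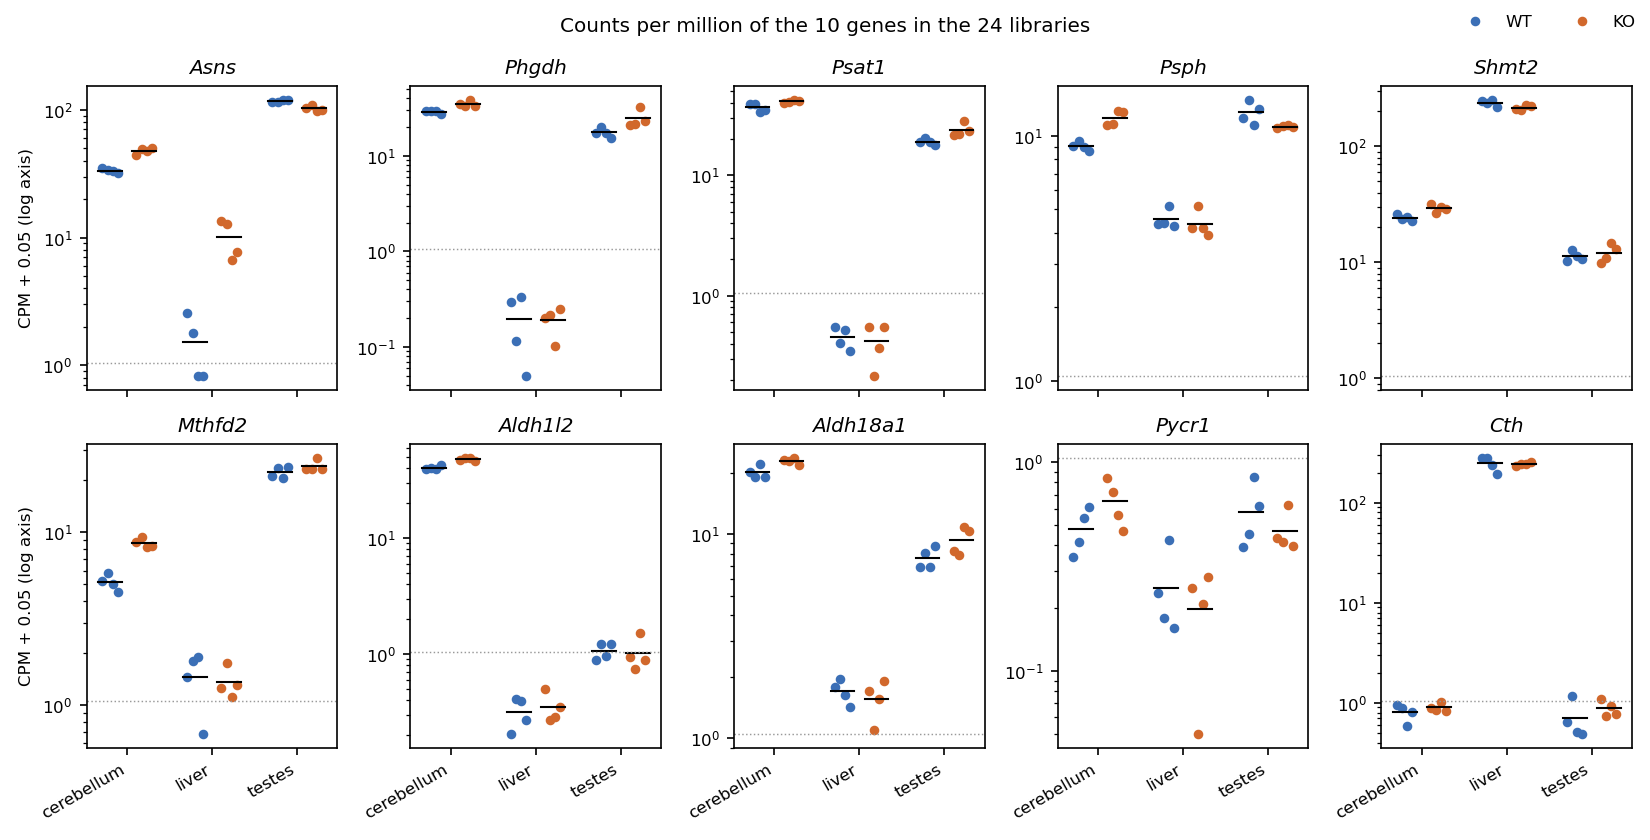
CPM of the 10 genes in each of the 24 libraries on a log axis (0.05 added so that 0 can be drawn), with WT in blue and KO in orange, a bar at each group mean and a dotted line at the 1 CPM of the filter. KO lies above WT in cerebellum for Asns (44.4 to 50.5 against 32.1 to 34.7) and Mthfd2 (8.12 to 9.36 against 4.49 to 5.78), and in liver for Asns (6.57 to 13.3 against 0.778 to 2.54).

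The number of cerebellar genes called depended on single libraries. It was 3 without WT replicate 1, 3 or 4 or without KO replicate 7, and Mthfd2, Asns and Aldh1l2 were called without each of the 8 libraries in turn. Shmt2 lost its call in 7 of those 8 fits (adjusted p from 0.0507 to 0.0985) and kept it only without KO replicate 6. Psph and Phgdh each lost theirs in 5 of 8. Calls over all genes moved too, from 638 higher and 407 lower with all 8 libraries to 300 and 117 without WT replicate 1. They were 323 and 140 without WT replicate 3 and 332 and 140 without WT replicate 4. Without KO replicate 7 they were 385 and 158, and they were 1204 and 1113 without KO replicate 6. None of the 6 genes was called when all 24 libraries were quantile normalized and fitted together. Their log2 changes there ran from 0.26 to 0.73, with adjusted p from 0.076 for Mthfd2 to 0.873 for Phgdh. That fit called 158 genes higher and 76 lower in cerebellum.

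KO cerebellum differed in its marker genes as well. The 10 midbrain markers summed to between 32.0 and 37.7 CPM in WT and to 71.9, 77.1, 44.5 and 40.4 CPM in KO replicates 5 to 8, and 2 of the 4 tested were higher. Slc6a3, Pitx3, Foxa1 and Foxa2 were at or under 3 counts in all 8 libraries. Without KO replicates 5 and 6, a pair chosen after seeing the data, the same 6 of the 8 genes were called higher. Over all genes that fit called 905 higher and 784 lower of 15958, against 638 and 407 of 16225 with all libraries. The KO libraries kept, at 44.5 and 40.4 CPM of midbrain markers, still lay above the highest WT sum of 37.7 CPM. The part of midbrain tissue in the 6 calls was therefore not tested by this fit. Astrocyte and Bergmann glia markers, the cells in which Phgdh is best known in brain, summed to between 3160 and 3253 CPM in WT and between 3146 and 3298 CPM in KO, with 3 of 9 called higher. Oligodendrocyte markers ranged from 2468 to 2968 and from 2842 to 3051 CPM, and 1 of 8 was higher. Granule cell markers ranged from 3977 to 4250 and from 3786 to 4042 CPM, and 2 of 6 were lower. The part of these cell types in the changes was not tested.

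In liver Asns rose and the other 5 genes tested (Mthfd2, Aldh18a1, Psph, Shmt2 and Cth) did not pass. Over all genes tested in liver, 2.79% of 12816 were called higher and 3.12% lower, and the median log2 change was -0.12 for the 6 genes and -0.0031 for all genes. Asns held 2.54, 1.75, 0.778 and 0.778 CPM in WT replicates 1 to 4 and 13.3, 12.6, 6.57 and 7.67 CPM in KO replicates 5 to 8. No KO library came near a WT library, although WT replicates 1 and 2 were higher than 3 and 4, and KO replicates 5 and 6 higher than 7 and 8. The log2 change was 2.72 ± 0.436, a 6.58-fold rise from a low level, with 21 to 82 counts per WT library and 229 to 266 per KO library and adjusted p = 0.00628. It was called under every alternative and without every single library, at log2 changes from 2.11 to 3.02. It was the only 1 of the 6 whose groups did not overlap, against 12.7% of all genes. Hepatocyte markers summed to between 55677 and 72825 CPM in WT liver and between 65786 and 95324 CPM in KO liver, with 2 of 9 called higher and 1 lower and a median log2 change of -0.046, and their part in this result was not tested.

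Even after its rise, liver Asns reached 3.67 ± 1.25 CPM per kb in KO, below the 12.2 ± 0.383 of WT cerebellum and the 42.6 ± 1.01 of WT testes. Atf4 was 106, 105, 62.4 and 56.3 CPM in the WT liver libraries and 82.1, 76.3, 76.9 and 76.2 CPM in the KO libraries. Its log2 change was 0.02 (adjusted p = 0.965), and as for Asns its WT replicates 1 and 2 were higher than 3 and 4.

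The genes at high level in liver showed no called change. Cth held 281, 279.9, 241 and 195 CPM in WT and 233, 247, 244 and 255 CPM in KO, and the 95% interval of its log2 change ran from -0.09 to 0.21. Shmt2 held 245, 234, 252 and 216 CPM in WT and 209, 205, 229 and 221 CPM in KO (interval -0.21 to 0.03). For Psph the interval was -0.44 to 0.16, for Aldh18a1 -0.64 to 0.23 and for Mthfd2 -0.92 to 0.42, so that for Mthfd2 a change as large as the one in cerebellum lay inside the interval when downward and outside it when upward. Phgdh, Psat1, Aldh1l2 and Pycr1 were under the filter, with at most 16 counts in any liver library. Without the filter their adjusted p lay between 0.677 and 0.998.

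**Figure D4:**
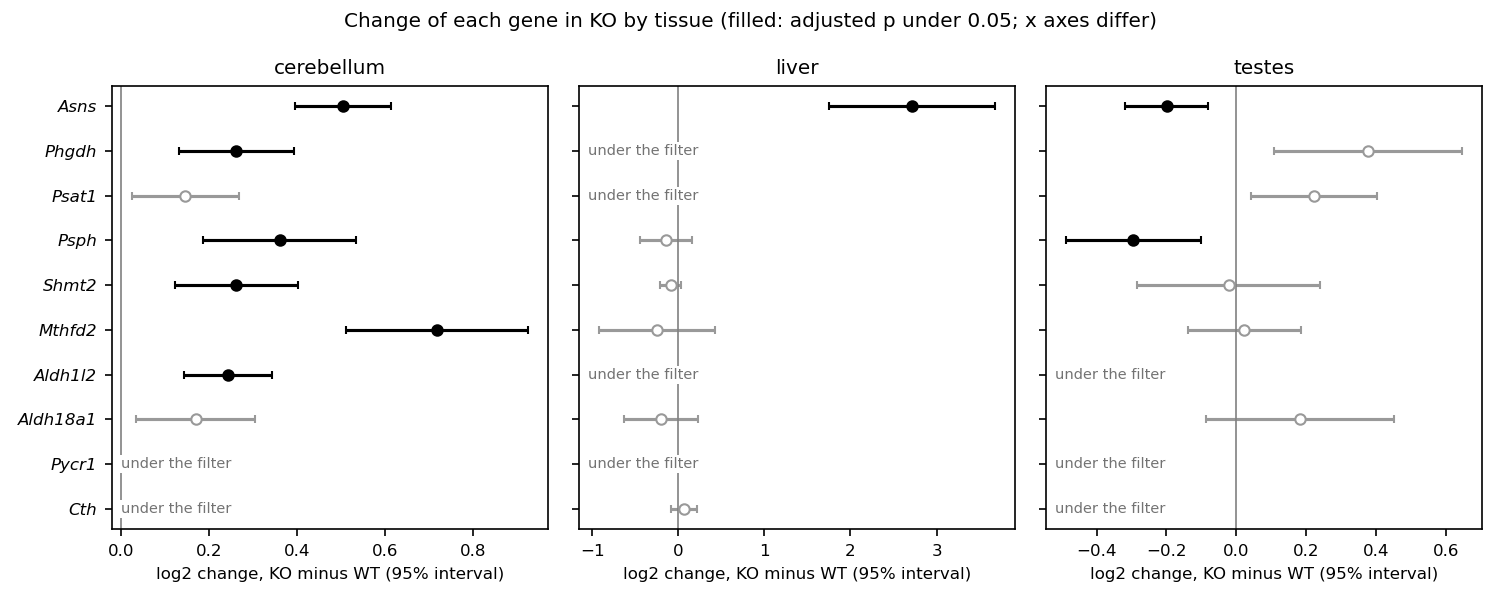
Log2 change of each gene in KO against WT with its 95% interval, 1 panel per tissue with its own x axis, where filled points had an adjusted p under 0.05 in limma. In cerebellum 6 points to the right of 0 are filled, in liver only Asns at 2.72, and in testes Asns at -0.20 and Psph at -0.29.

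In testes, the tissue with the highest Asns, Asns and Psph fell among the 7 genes tested, and 0 were called higher by limma. At an unadjusted p under 0.05 Phgdh and Psat1 were higher, edgeR called Phgdh and DESeq2 called both. Over all genes tested in testes, 9.74% of 19329 were called higher and 10.7% lower. The median log2 change was 0.023 for the 7 genes and 9.7e-05 for all genes. Asns held 114, 114, 118 and 119 CPM in WT and 103, 109.7, 97.2 and 98.6 CPM in KO. Every KO library lay below every WT library, and the log2 change was -0.20 ± 0.0546 with adjusted p = 0.0265. Psph held 11.7, 13.9, 11.03 and 12.8 CPM in WT and 10.7, 10.9, 10.9 and 10.8 CPM in KO, with a narrow gap between the groups (log2 change -0.29 ± 0.0879, adjusted p = 0.0363).

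The first and second genes of the serine route were higher in KO testes without passing. Phgdh held 17.4, 20.04, 17.2 and 15.2 CPM in WT and 21.03, 21.5, 32.0 and 23.2 CPM in KO (log2 change 0.38 ± 0.123, adjusted p = 0.0502). Psat1 held 18.8, 20.2, 18.7 and 17.9 CPM in WT and 21.4, 21.8, 28.3 and 23.2 CPM in KO (0.22 ± 0.0826, adjusted p = 0.0744). In both genes every KO library was above every WT library and KO replicate 7 was the highest. Without that library the log2 change of Phgdh was 0.25 (adjusted p = 0.0874). Together with Asns and Psph this made 4 of 7 genes without overlap, against 28.6% of all genes.

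Mthfd2, Shmt2 and Aldh18a1 gave no call in testes. Mthfd2 ranged from 20.5 to 23.7 CPM in WT and from 23.1 to 27.0 CPM in KO (log2 change 0.02, interval -0.14 to 0.18). Shmt2 ranged from 10.3 to 12.8 and from 9.82 to 14.7 CPM (log2 change -0.02, interval -0.28 to 0.24), and its sign turned with TMM factors (0.03). Aldh18a1 ranged from 6.85 to 8.74 and from 7.88 to 10.8 CPM (log2 change 0.18, interval -0.09 to 0.45), with a log2 change of 0.12 without KO replicate 7. Aldh1l2, Pycr1 and Cth were under the filter, at 0.343 to 1.47 CPM.

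Cell markers in testes moved with genotype. Sertoli cell markers summed to 441, 470.4, 411 and 395 CPM in WT and to 528, 543, 756 and 629.8 CPM in KO, and 9 of 10 were called higher. Elongating spermatid markers summed to between 11614 and 12177 CPM in WT and to 10813, 10585, 8494 and 8976 CPM in KO, with 4 of 7 lower, and round spermatid markers to between 817 and 832 and between 656 and 788 CPM, with 3 of 7 lower. None of these 3 lists had a marker at or under 3 counts in all libraries. KO replicate 7, which had the highest Phgdh and Psat1, also had the highest Sertoli and lowest spermatid sums. The part of these cells in the changes was not tested. Without KO replicates 7 and 8 only Asns remained lower and Psph did not pass (log2 change -0.28, adjusted p = 0.0798). The count of 2 became 0 without WT replicate 2, WT replicate 4 or KO replicate 7, 1 without WT replicate 3 or KO replicate 8, and 4 without KO replicate 5, when Phgdh and Psat1 also passed as higher. Without KO replicate 6 it stayed at 2, but Phgdh passed and Psph did not (adjusted p = 0.0514). Calls over all testes genes were 1882 higher and 2075 lower with all libraries. They were 756 and 968 without WT replicate 4 and 2418 and 2495 without KO replicate 5. Psph was also lost with edgeR (adjusted p = 0.0568) and with TMM factors (0.0617), and Asns with all 24 libraries quantile normalized together (0.152), a fit in which Psat1 passed as higher (0.0420).

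Whether the KO effect differed between tissues was tested over all 24 libraries. The fit held the 11112 genes above the filter in each tissue, which left Asns, Mthfd2, Psph, Shmt2 and Aldh18a1. Asns differed in each contrast. Its log2 change was 2.25 larger in liver than in cerebellum (difference -2.25 ± 0.319 for cerebellum minus liver, adjusted p = 0.000112) and larger again against testes (-3.08 ± 0.308 for testes minus liver, adjusted p = 1.1e-06). Between testes and cerebellum the difference was -0.83 ± 0.169 (adjusted p = 0.00267).

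Mthfd2 and Psph differed between testes and cerebellum, by -0.75 ± 0.174 (adjusted p = 0.00643) and -0.70 ± 0.125 (adjusted p = 0.000991). Shmt2 differed between cerebellum and liver by 0.39 ± 0.101 (adjusted p = 0.0199), a call lost without cerebellum KO replicate 5 (0.35, adjusted p = 0.0591) and with the filter applied over all 24 libraries (22678 genes, adjusted p = 0.102). The counts called were 2 of 5 between cerebellum and liver, 1 of 5 between testes and liver and 3 of 5 between testes and cerebellum. The background was 7.67%, 15.9% and 14.5% of all genes tested. The contrasts share libraries and are not independent. For Mthfd2 between cerebellum and liver the difference was 0.80 with a 95% interval from 0.23 to 1.36 (adjusted p = 0.0721). It passed with edgeR (0.0234), with DESeq2 (0.00127) and with the replicate number as a block (0.0322). It also passed without liver WT replicate 4 (0.00335) and without liver KO replicate 6 (0.0473). For Psph and Aldh18a1 in the same contrast it was 0.45 (adjusted p = 0.0686) and 0.29 (adjusted p = 0.387), the latter 0.17 without liver KO replicate 6. For Aldh18a1 between testes and cerebellum it was -0.02 (interval -0.29 to 0.25).

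The wider pathways behind the 10 genes were counted from 6 lists that hold none of them, with 64 genes in the table. In cerebellum 2 of 55 tested rose and none fell, at a median log2 change of 0.029. This is near the background of 3.93% higher and 2.51% lower over all genes and is no result about the lists. The genes called were Got2, the mitochondrial aspartate aminotransferase (0.25 ± 0.0353, adjusted p = 0.00181), from the asparagine and aspartate list (1 of 10), and Tyms, thymidylate synthase (0.44 ± 0.101, adjusted p = 0.0231), from the cytosolic folate list (1 of 13). No gene was called by limma in the lists of serine and glycine breakdown (9 tested), mitochondrial folate (6), proline and ornithine (5) or methionine and transsulfuration (12). At an unadjusted p under 0.05 these lists had 0, 1, 0 and 3 genes, and edgeR and DESeq2 each called 1 gene lower in the last.

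In liver 4 of 63 rose and 5 fell (median -0.013), where 2.79% of all genes were called higher and 3.12% lower. Prodh, which begins proline breakdown, fell by 0.66 on the log2 scale (adjusted p = 0.000975), from 172 ± 10.7 to 106 ± 4.27 CPM, and was the called gene of 6 in the proline list. Serine dehydratase (Sds) fell by 0.62 (adjusted p = 0.00951), from 63.5 ± 10.1 to 40.1 ± 7.26 CPM. In the same list of serine and glycine breakdown, Agxt (0.47), Gatm (0.37) and Agxt2 (0.36) rose, 3 of 12. Gpt2 (-0.34) and Aspg (-0.32) fell among the 10 asparagine and aspartate genes, and Csad (-0.58) fell and Gclc (0.28) rose among 15 methionine and transsulfuration genes. Limma and edgeR called none of 6 mitochondrial and 14 cytosolic folate genes, of which 0 and 4 had an unadjusted p under 0.05, and DESeq2 called 1 cytosolic gene lower.

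In testes 8 of 54 rose and 3 fell (median 0.104), where 9.74% of all genes were called higher and 10.7% lower. Bhmt (0.66), Cdo1 (0.36) and Mat2a (0.27) rose and Bhmt2 (-0.59) fell among 13 methionine and transsulfuration genes. Sardh, which breaks down sarcosine, rose by 0.62 ± 0.142 (adjusted p = 0.0131), 1 of 6 in the mitochondrial folate list. Gatm (0.55) rose and Gldc (-0.41), the glycine-cleaving decarboxylase, fell among 8 genes of serine and glycine breakdown. Methionine synthase (Mtr, 0.32) rose and Fpgs (-0.22) fell among 13 cytosolic folate genes, and Oat (0.29) rose among 5 proline and ornithine genes. Got2, Sds, Sardh, Mat2a, Csad, Bhmt and Fpgs overlap an exon on the other strand, and Agxt2 one on its own strand, so these values are uncertain.

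**Figure D5:**
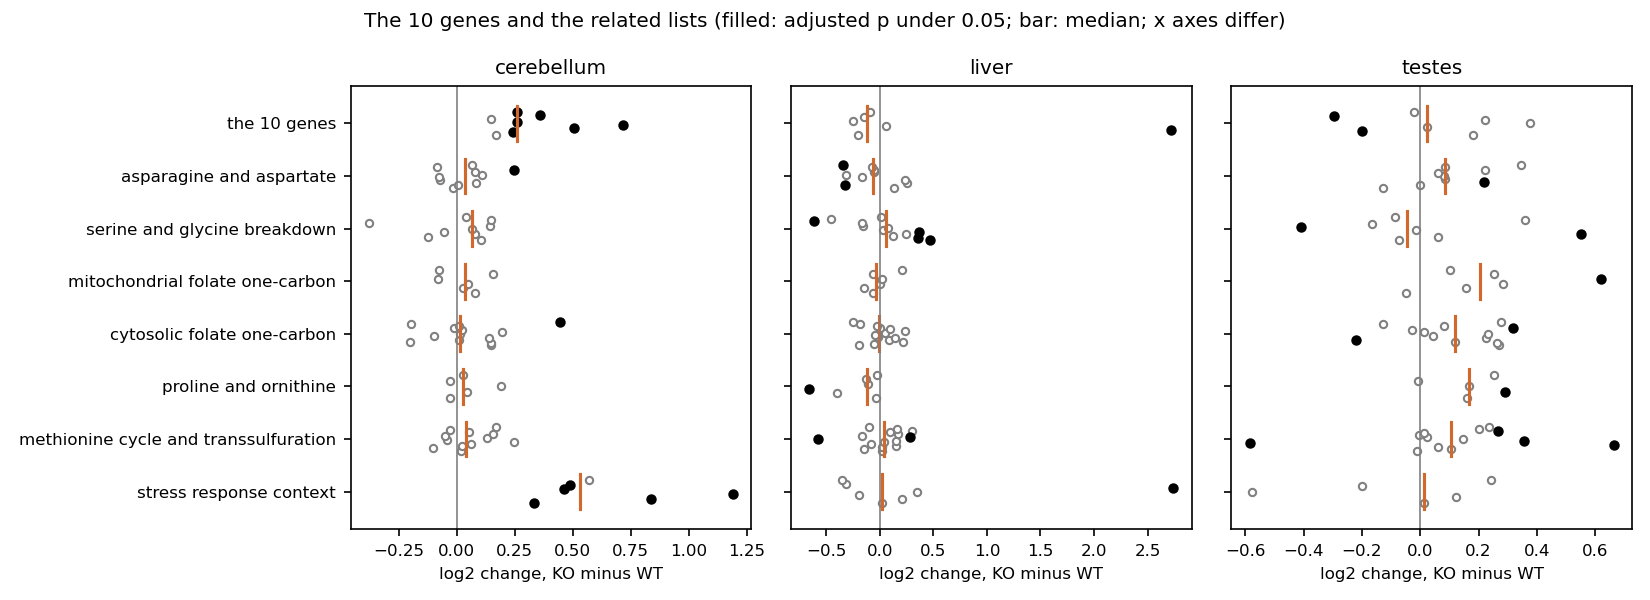
Log2 change in KO against WT of the tested genes in each list, 1 panel per tissue with its own x axis, where filled points had an adjusted p under 0.05 and the bar is the list median. In cerebellum the 10 genes have a median of 0.26 over the 8 tested, while the 6 pathway lists have medians from 0.016 to 0.064.

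A short list of stress response genes was set beside them. Over all genes tested, 3.93% were called higher in cerebellum, 2.79% in liver and 9.74% in testes. In cerebellum 5 of 6 tested rose, namely Chac1 (1.19 ± 0.137), Atf5 (0.84 ± 0.0583), Sesn2 (0.49 ± 0.0895), Ddit3 (0.46 ± 0.104) and Atf4 (0.33 ± 0.0427, adjusted p = 0.00105). Atf4 held 79.5, 77.8, 72.1 and 74.3 CPM in WT and 99.5, 94.2, 95.8 and 92.9 CPM in KO cerebellum, without overlap. Exons of Atf5 and Ddit3 overlap genes on the other strand, and Ddit3 has 2 rows in the table, of which the second was near 0. In liver 1 of 7 rose in limma, Fgf21, a secreted hormone of fasting and stress (2.74 ± 0.529, adjusted p = 0.0143), from 0.464 ± 0.360 to 2.16 ± 0.539 CPM. There edgeR called 1 higher and DESeq2 2, and at an unadjusted p under 0.05 in limma 2 were higher and 1 lower. In testes 0 of 5 was called by limma, edgeR or DESeq2, with 2 lower at an unadjusted p under 0.05, and Atf4 had a log2 change of 0.01 (adjusted p = 0.877).

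The 5 genes whose pattern over the 24 libraries was most like that of Asns were Sntg1, Srrm4, Adgrv1, Gm42551 and Plcd3. Likeness was the root mean square difference of log2 CPM, each gene centred on its WT mean per tissue, over 11111 other genes. It was 0.582 for Sntg1, 0.744 for Srrm4, 0.763 for Adgrv1, 0.799 for Gm42551 and 0.815 for Plcd3, against 1.26 for a flat profile. The genes were picked over these same libraries, and Asns changed most in liver. Their liver changes therefore follow from the choice and are no separate result. Sntg1, a syntrophin, had log2 changes of 1.73 in liver (adjusted p = 0.00235) and 0.40 in cerebellum (adjusted p = 0.00905). Srrm4, a neuronal splicing factor, had 1.84 in liver (adjusted p = 0.00204) and -0.12 in cerebellum (adjusted p = 0.155). In liver Gm42551 also passed (1.20, adjusted p = 0.00793), while Adgrv1 (1.09, adjusted p = 0.0526) and Plcd3 (0.90, adjusted p = 0.0710) did not, and none of these 3 passed in cerebellum. Of the 10 genes, the 4 others above the filter in every tissue were ranked too, Mthfd2 at 4443, Psph at 5159, Shmt2 at 7360 and Aldh18a1 at 8198, and the other 5 were not compared. The distances of these 4 ran from 1.25 to 1.32, near the 1.26 of a flat profile and the median of 1.27. Their ranks therefore say little.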

How the data were processed

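Thumpd1 KO and WT mice gave 24 RNA libraries, 4 for each genotype in each of 3 tissues. The authors deposited expected counts per gene, not normalized, from STAR alignment and RSEM (mm10, GENCODE M21). Versions and the strand setting are not given in the sources used here. Between 12.316% and 16.614% of nonzero values were not whole, and 0 columns were left unmatched. Groups came from the labels.

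Genes with at least 1 CPM in at least 4 of the 8 libraries of a tissue were quantile normalized with voom and compared in limma 3.58.1 (R 4.3.3), with Benjamini-Hochberg adjustment over all genes tested and a threshold of 0.05. Tissue differences used TMM factors from edgeR 4.0.16 and contrasts over 24 libraries. Counts were also rounded for edgeR and DESeq2 1.42.0, and the other alternatives were other normalizations, filters and weights, the replicate number as a block, and each library left out. Leaving out pairs of KO libraries, and the CCAAT and GC boxes, were chosen after seeing the data. Lengths are merged exons of GENCODE M21. Total counts of 16353797 to 37889615 per library set the precision, and floors cover counting error only. Fits were also run on simulated counts with known changes, and the outcome is not given here.

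The 10 genes, the pathway, stress and 16 marker lists (written from general knowledge) and the tests were chosen with earlier results of these data known. Named are the 10 genes, Thumpd1, Atf4, up to 4 called genes of largest change per list and tissue, and the 5 genes most like Asns. Pycr3 has no row under that symbol. A few values picked by this rule are not reported here.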

Additional observations from a re-analysis of the deposited data

Results flagged for a closer look

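The KO effect differed between tissues for 4 of the genes, by the test of the difference in limma over 24 libraries. For Asns the difference in log2 change was -2.25 for cerebellum minus liver, -3.08 for testes minus liver and -0.83 for testes minus cerebellum. For Mthfd2 it was -0.75 and for Psph -0.70, both for testes minus cerebellum. For Shmt2 it was 0.39 for cerebellum minus liver.

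Single libraries stood apart in 4 of 60 groups of 4, by the gap to the nearest library over the range of the group, and chance gives about 1 in 20. In cerebellum WT replicate 4 held 27.1 CPM of Phgdh against 29.1 to 29.5 in the others. In liver WT replicate 3 held 5.13 CPM of Psph against 4.22 to 4.37. In testes KO replicate 7 held 27.0 CPM of Mthfd2 against 23.1 to 23.3 and 0.573 CPM of Pycr1 against 0.346 to 0.384. This library also had the highest Sertoli marker sum of its tissue.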

How the results depend on the processing

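The 6 calls in cerebellum were 5 to 6 under edgeR, DESeq2, TMM factors, quality weights and the other filters, but 0 with all 24 libraries quantile normalized together, and 3 to 6 with a library left out. The call in liver was 1 throughout, and 1 to 1 with a library left out. The 2 calls in testes became 4 with DESeq2, 4 with quality weights and 0 without a filter. They were 1 without KO replicates 7 and 8, and 0 to 4 with a library left out. Over all testes genes, 1882 higher and 2075 lower became 2507 and 2532 with DESeq2 and 3014 and 3093 with quality weights. Without a filter they were 1370 and 1521 of 39344 genes. Where the count in testes was near 2 the genes could still differ, since Psph was lost with edgeR (adjusted p = 0.0568), with TMM factors (0.0617) and without KO replicate 6 (0.0514), with Phgdh called in each, and with all 24 libraries quantile normalized Asns was lost (0.152) and Psat1 gained as higher (0.0420). In cerebellum Shmt2 was lost without a filter (0.0658) and in 7 of 8 fits with a library left out, and Psph and Phgdh in 5 of 8 each. Between cerebellum and liver the 2 differing effects became 1 with the filter of 4 of 24 libraries and 4 with DESeq2, and 1 to 4 with a library left out. Over all genes, 433 differed upward and 419 downward, against 785 and 656 with DESeq2. With that filter they were 284 and 280 of 22678 genes. In this contrast Mthfd2 passed with edgeR (0.0234) and DESeq2 (0.00127), and Psph with DESeq2 (0.0355) and quantile normalization (0.0406). Between testes and liver it was 1 to 1, and between testes and cerebellum 3 to 4. WT calls stayed at 8 to 8 (cerebellum and liver), 9 to 9 (testes and liver) and 7 to 8 (testes and cerebellum) with a library left out. In the 6 pathway lists DESeq2 called 6 genes higher and 11 lower in liver, against 4 and 5 with limma. Over all liver genes DESeq2 called 664 higher and 744 lower of 12811, against 357 and 400 of 12816 with limma. The replicate number as a block gave 3, 1 and 3 differing effects (cerebellum and liver, testes and liver, testes and cerebellum) and 8, 9 and 7 WT calls. The block added Mthfd2 between cerebellum and liver (0.83, adjusted p = 0.0322) and took away Phgdh between WT testes and WT cerebellum (adjusted p = 0.192). The labels do not say whether equal numbers share an animal. Deviations of same-numbered libraries correlated at -0.180 to 0.267 over 24 pairs (median 0.044, against -0.012 for other numbers), with 5 over 0.1, so the numbers were not treated as pairs. In 19 of 48 comparisons a library matched its own number best among 4, and whether they share an animal was not tested further.

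With a library left out, uncalled changes in liver ran from -0.52 to -0.087 for Mthfd2 (WT replicate 4, KO replicate 7), and without KO replicate 6 Aldh18a1 was -0.092 and Psph -0.22. Phgdh in testes ran from 0.25 (KO replicate 7) to 0.44, and Aldh18a1 for cerebellum minus liver from 0.17 (liver KO replicate 6) to 0.39. WT Mthfd2 for cerebellum minus liver was 0.45 without liver WT replicate 4. Signs turned for values that had not passed, and under quantile normalization for WT levels that had. Cth in liver was -0.011 with edgeR, -0.0077 with DESeq2 and -0.0044 with TMM. Mthfd2 in testes was -0.0034 with quality weights, -0.0047 without KO replicates 7 and 8, and -0.011 to 0.057 with a library left out. Shmt2 in testes was 0.036, 0.032 and 0.032 with edgeR, DESeq2 and TMM, and -0.11 to 0.065 with a library left out. Of the tissue differences, Shmt2 for testes minus liver was -0.0016 with quantile normalization and -0.0025 to 0.16 with a library left out, Mthfd2 -0.12 to 0.32, and Aldh18a1 for testes minus cerebellum 0.059 with the filter of 4 of 24 libraries and -0.083 to 0.050. Of WT levels, quantile normalization gave -0.13 for Mthfd2 (cerebellum minus liver), -3.45 for Aldh1l2 and -0.11 for Psph (testes minus liver), and Cth for testes minus cerebellum was 0.015 with edgeR, 0.095 with DESeq2 and -0.34 to 0.084 with a library left out, but -2.70 (adjusted p = 2.4e-09) with quantile normalization, against -0.058 (0.902) with TMM factors. Quantile normalization also took WT Aldh18a1 for testes minus liver from 1.26 to 0.071 (adjusted p = 0.640) and WT Psph for cerebellum minus liver from -0.19 to -0.61 (adjusted p = 1.4e-05). The cause was not tested.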

Other observations

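The other marker lists gave these values in their own tissue. In liver 0 of 8 macrophage markers were called by limma, edgeR or DESeq2 (1 at an unadjusted p under 0.05, 204 to 267 CPM in WT, 227 to 268 in KO), and 1 of 4 bile duct markers was higher (25.7 to 29.8, 27.9 to 32.9 CPM). In cerebellum 1 of 6 Purkinje markers was higher (5609 to 6038, 5845 to 6150.5 CPM), 0 of 7 microglia markers were called by any of these tools (2 at an unadjusted p under 0.05, 75.9 to 88.1, 86.8 to 94.6 CPM), and the 7 choroid plexus markers, also uncalled and with 0 at an unadjusted p under 0.05, ran from 17.1 to 1082 CPM in WT and from 21.5 to 363 CPM in KO. In testes 2 of 6 Leydig markers (1032 to 1121, 941 to 1555 CPM) and 1 of 8 spermatogonia markers (121 to 133, 130.4 to 195 CPM) were higher, and 0 of 7 spermatocyte markers were called by limma (2 at an unadjusted p under 0.05, 1 by edgeR and 1 by DESeq2, 705 to 775, 742 to 810.4 CPM).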
